A study of Homo sapiens with 6 samples.

Results

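Genes of iron uptake, storage and export were followed in HepG2 cells, a human liver tumour line, grown on plates or in a bioreactor. They were chosen by symbol and all 10 of 10 were found among the 19846 genes of the count table: TF, TFRC, TFR2, SLC11A2, FTH1, FTL, SLC40A1, CP, HAMP and IREB2. In the 2D group (3 samples) cells were seeded at 200000 per square centimetre in 6-well plates and kept in EMEM that was renewed every 2 days. In the 3D group (3 samples) they grew in an interwoven hollow fiber bioreactor, in equal parts of EMEM and DMEM with 10% fetal bovine serum, penicillin, streptomycin and GlutaMAX. There the medium recirculated at 23.5 mL/min, with a feed of 2 mL/hour and a gas flow of 200 mL/min. Both groups held HepG2 cells of passage 7 to 9, with no genetic change labelled, at 37 °C and 5% CO2. Culture form, medium and feeding differed together and cannot be told apart. Neither the iron content of the media nor the serum content on the plates is stated, and the labels do not say whether samples of a group were separate cultures, and p-values therefore reflect only the spread among these samples, which may be technical.

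Iron circulates bound to transferrin (TF), a protein that hepatocytes secrete. Cells take it up through transferrin receptor 1 (TFRC), reduce it in the endosome and move it into the cytosol through SLC11A2 (DMT1). Ferritin, built of heavy (FTH1) and light (FTL) chains, stores it, and ferroportin (SLC40A1) exports it with the help of ferroxidases such as ceruloplasmin (CP). Hepcidin (HAMP), a hormone made by hepatocytes, removes ferroportin from the cell surface, and transferrin receptor 2 (TFR2) takes part in its control. When iron is scarce, the iron regulatory proteins, ACO1 and IREB2, bind hairpins called iron responsive elements. Binding in the 3′ UTR protects TFRC mRNA from decay, and binding in the 5′ UTR blocks translation of ferritin and ferroportin mRNA, which mRNA counts do not measure.

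These hairpins are shown first because they group members by how iron acts on their mRNA. The members are FTH1, FTL, SLC40A1 and TFRC, and with a weaker match SLC11A2. GENCODE release 29 transcripts (GRCh38, the build named for the counts) were searched for CNNNNNCAGTGN on the transcribed strand, with the 5 bases before the CAGTGN loop pairing with the 5 bases after it, G to T pairs allowed. A match with all 5 pairs stood in 0.135% of 11819 5′ UTRs and 0.667% of 12149 3′ UTRs of tested genes. These shares count the principal transcript of each gene, while the member sites below come from all annotated transcripts, a wider search. Capitals mark the loop, and each sequence reads 5′ to 3′ on the strand of the gene, with T for U.
FTH1, 5′ UTR, chr11:61967574-61967602, minus strand: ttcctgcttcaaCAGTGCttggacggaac
FTL, 5′ UTR, chr19:48965335-48965363, plus strand: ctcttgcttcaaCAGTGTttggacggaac
SLC40A1, 5′ UTR, chr2:189580661-189580689, minus strand: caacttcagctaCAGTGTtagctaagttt
TFRC, 3′ UTR, chr3:196050979-196051007, minus strand: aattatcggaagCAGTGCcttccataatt
TFRC, 3′ UTR, chr3:196050575-196050603, minus strand: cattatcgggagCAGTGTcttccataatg
TFRC, 3′ UTR, chr3:196050510-196050538, minus strand: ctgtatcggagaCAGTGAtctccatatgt
TFRC, 3′ UTR, chr3:196050463-196050491, minus strand: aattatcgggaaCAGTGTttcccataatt
SLC11A2, 3′ UTR, chr12:50988269-50988297, minus strand: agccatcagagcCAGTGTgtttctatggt
All but the last have 5 of 5 pairs, and the SLC11A2 site has 4 of 5 and is carried by 7 annotated transcripts of a gene whose isoforms differ in their 3′ ends. IREB2 had a 3′ UTR match with 4 of 5 pairs as well. No background share was computed for 4 of 5 pairs, so this search does not set SLC11A2 apart from IREB2. The fully paired match in the annotated TF 3′ UTR lay beyond the end of TF in the count table. A match describes letters, not binding.

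Each gene was tested with edgeR's quasi-likelihood test on all 15314 genes kept, and called at a Benjamini-Hochberg adjusted p under 0.05. Levels are CPM, each count scaled to the library total after TMM normalisation, and fold changes are 3D over 2D. Total counts ran from 9530795 to 17943513 per library. The smallest library, 3D replicate 1, lay apart from the other 3D libraries on the second principal component (37.9 against −17.2 and −27.5), and results that rest on it are given without it. All 10 hepatocyte marker genes looked for were present, at a summed level of 38284 to 42621 CPM in 2D and 28433 to 44843 CPM in 3D. Within that sum APOB, the largest part of it on plates, fell from 17756 ± 1051 to 6631 ± 2107 CPM (SD, n = 3), and APOA1 rose from 1232 ± 159 to 3219 ± 541 CPM. Fold changes over all coding genes moved with transcript length, from a median log2 of 0.39 in the shortest of 10 equal groups to −0.42 in the longest, so values with length and GC content corrected are given where they alter a call.

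Of the 10 iron genes, 3 rose in 3D (TF, TFRC and FTL), 1 fell (TFR2) and 6 were not called. Among all tested genes 19.0% rose and 17.6% fell, so these counts are close to the background and the list as a whole is not set apart. Its median log2 fold change was 0.31, beside 0.02 over all tested genes. The 3D and 2D values did not overlap for 4 of the 10 (TF, FTL, TFR2 and SLC11A2), and of all tested genes 25.6% were higher and 24.9% lower with no overlap, 50.5% in either direction. TFR2 was the one of the 4 that was lower. With length and GC content corrected, again 3 rose and 1 fell, but SLC11A2 took the place of FTL among those that rose.

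**Figure D1:**
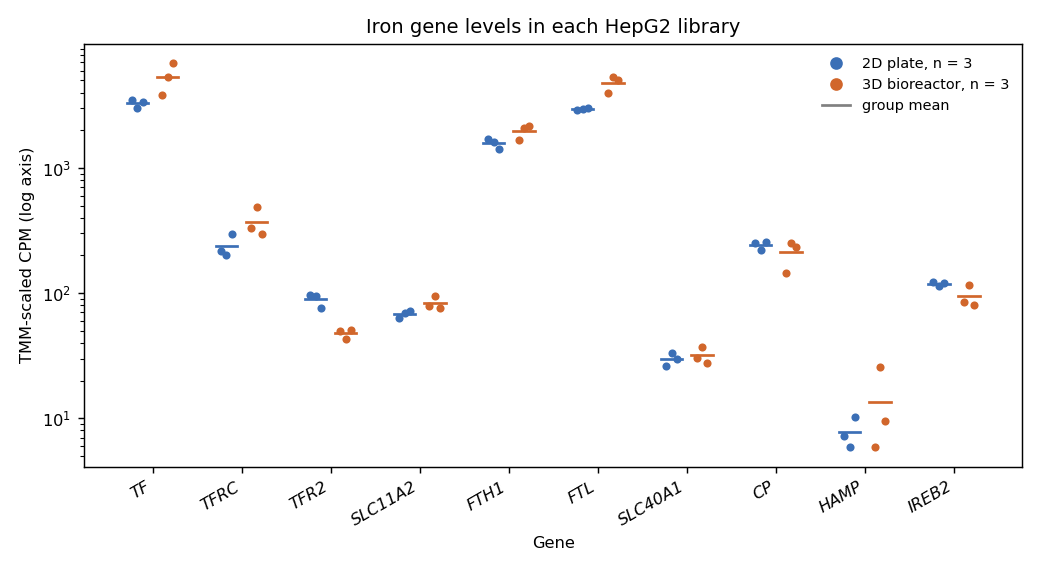
Level of each iron gene in each library, as TMM-scaled CPM on a log axis; dots are libraries, short lines group means, with 3 libraries per culture form. The 3D dots lie above every 2D dot for TF, FTL and SLC11A2 and below every 2D dot for TFR2, and 1 HAMP dot of the 3D group, at 25.5 CPM, stands above the rest.

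Within the 2D libraries the members spanned a wide range of abundance. Per kilobase of transcript, the light ferritin chain FTL was the most abundant, at 3362 ± 51.2 CPM per kb (SD, n = 3), followed by FTH1 at 1279 ± 119 and TF at 1108 ± 89.4. FTH1 and TF overlapped between libraries, so their order is not resolved. Next came CP at 51.8 ± 3.79 and TFRC at 46.8 ± 10.0 CPM per kb, which also overlapped, and then TFR2 at 28.4 ± 3.80. IREB2 stood at 18.8 ± 0.688, SLC11A2 at 16.4 ± 1.10, HAMP at 11.9 ± 3.45 and SLC40A1 at 8.62 ± 1.02 CPM per kb. HAMP overlapped both of its neighbours in that order. In 3D FTL was again the highest, at 5467 ± 815 CPM per kb, and SLC40A1 had the lowest mean, at 9.23 ± 1.41. Lengths were those of the principal GENCODE transcript within the gene bounds of the count table, so the levels depend on that choice.

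TF (chromosome 3, 133745956 to 133779007, hg38), the carrier of plasma iron, stood at 3512, 2996 and 3362 CPM in 2D replicates 1 to 3 and at 3856, 5357 and 6870 CPM in 3D replicates 1 to 3. All 3D libraries lay above all 2D libraries, and the 3D libraries differed among themselves more than those on plates. The gene rose 1.63-fold (log2 0.70, SE 0.20, edgeR adjusted p = 0.0178). In 3D it was lowest in replicate 1 and highest in replicate 3, as was ALB, the main serum protein of the liver, at 6300.3, 10008 and 13238 CPM. ALB itself was not called by edgeR (log2 0.66, adjusted p = 0.0698), but was with DESeq2 (adjusted p = 0.017) and without 3D replicate 1 (log2 0.88, edgeR adjusted p = 0.00576). The TF call was lost without 2D replicate 1, 2D replicate 2, 3D replicate 2 or 3D replicate 3 (edgeR adjusted p = 0.0516, 0.0817, 0.0504 and 0.0769). A processed pseudogene row inside TF, RP11-404G16.2, held at most 0.952% of the count of TF in any library.

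TFRC (chromosome 3, 196027183 to 196082190), the receptor that brings transferrin into the cell, was at 218, 201 and 297 CPM on plates and at 330.3, 489 and 294 CPM in the 3D libraries. The highest plate value lay just above the lowest bioreactor value, so the groups overlapped. Its rise was 1.55-fold (log2 0.63, SE 0.21, 95% interval 0.17 to 1.10, edgeR adjusted p = 0.0357), and log2 0.89 with length and GC content corrected (adjusted p = 0.00344). The call was lost without 2D replicate 1 or 2, or 3D replicate 1 or 2 (edgeR adjusted p = 0.124, 0.129, 0.066 and 0.12), and the log2 fold change fell to 0.38 without 3D replicate 2. TFRC is also known to be high in dividing cells. MKI67, a marker of cycling cells, stood at 128, 75.4 and 234 CPM in 2D and at 262, 209.5 and 189.6 CPM in the bioreactor (edgeR adjusted p = 0.254), and was called higher without 2D replicate 3 (log2 1.11, adjusted p = 0.00578). It was also called higher with the replicate block and the length and GC correction together (log2 1.08, adjusted p = 0.036). Both genes were lowest in 2D replicate 2, but in the bioreactor TFRC was highest in replicate 2 and MKI67 in replicate 1. The part of cell division in the rise of TFRC was not tested.

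TFR2 (chromosome 7, 100620416 to 100642780), the receptor of hepatocytes that responds to iron-loaded transferrin, moved the other way. It was at 97.3, 94.2 and 75.3 CPM on plates and at 49.5, 43.3 and 51.0 CPM in the bioreactor. Every 3D library lay below every 2D library, with a narrow spread in 3D. The 2D level was 1.86-fold the 3D level (log2 −0.89, SE 0.14, edgeR adjusted p = 0.000587), and TFR2 was called lower under all 17 alternative settings, at log2 values from −1.12 to −0.83. Only 7.03% of tested genes had a lower log2 fold change. The count ratio of TFRC to TFR2, which does not depend on library scaling, was 2.25, 2.14 and 3.95 in the 2D libraries and 6.67, 11.3 and 5.77 in the 3D libraries. The groups did not overlap, and the mean log2 ratio differed by 1.51 (two-sided exact permutation p = 0.1, the smallest that 3 against 3 samples allow).

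SLC11A2 (chromosome 12, 50979401 to 51028567), the endosomal iron transporter, was at 63.2, 69.0 and 72.2 CPM in 2D and at 79.3, 94.8 and 76.1 CPM in 3D. Although the groups did not overlap, the gene missed the threshold (log2 0.29, SE 0.13, edgeR adjusted p = 0.0898). With length and GC content corrected it was called higher (log2 0.46, adjusted p = 0.00415). The counts do not separate its isoforms with and without the hairpin.

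FTL (chromosome 19, 48965301 to 48966879), the light ferritin chain, was at 2900.4, 2969.7 and 2985 CPM in the 2D libraries and at 3988, 5339 and 5074 CPM in the 3D libraries. The plate libraries lay within a narrow band, and all bioreactor libraries were above it. FTL rose 1.63-fold (log2 0.70, SE 0.16, edgeR adjusted p = 0.00517). It remained called whichever single library was left out. Its transcript is in the shortest length group, where the median log2 fold change was 0.39. Correcting for length and GC content, the call was lost (log2 0.26, adjusted p = 0.205).

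FTH1 (chromosome 11, 61959718 to 61967661), the heavy chain that oxidises iron for storage, was at 1691, 1614 and 1409 CPM in 2D and at 1677, 2081 and 2169.8 CPM in 3D. One 3D library lay among the plate values, and the gene was not called (log2 0.33, SE 0.15, edgeR adjusted p = 0.109). Without that library, 3D replicate 1, it was called higher (log2 0.42, adjusted p = 0.0298). The count ratio of FTL to FTH1 was 1.71, 1.84 and 2.12 on plates and 2.38, 2.57 and 2.34 in the bioreactor. These groups did not overlap, with a difference in mean log2 ratio of 0.36 (two-sided exact permutation p = 0.1, the smallest possible here). Correcting for length and GC content, the log2 fold changes of FTL and FTH1 were 0.26 and 0.08, closer to each other than without it. No corrected ratio was computed.

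Ferritin genes have many processed copies, which can share reads with them. The table held 13 FTH1 pseudogene rows, with 8.44% to 9.87% of the summed FTH1 and pseudogene counts, and 3 FTL pseudogene rows, with 3.10% to 4.93% of theirs. Adding these counts to the parent genes left the difference in the FTL to FTH1 log2 ratio at 0.37. BEST1, on the opposite strand across FTH1, had at most 2.94% of the FTH1 count in any library.

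**Figure D2:**
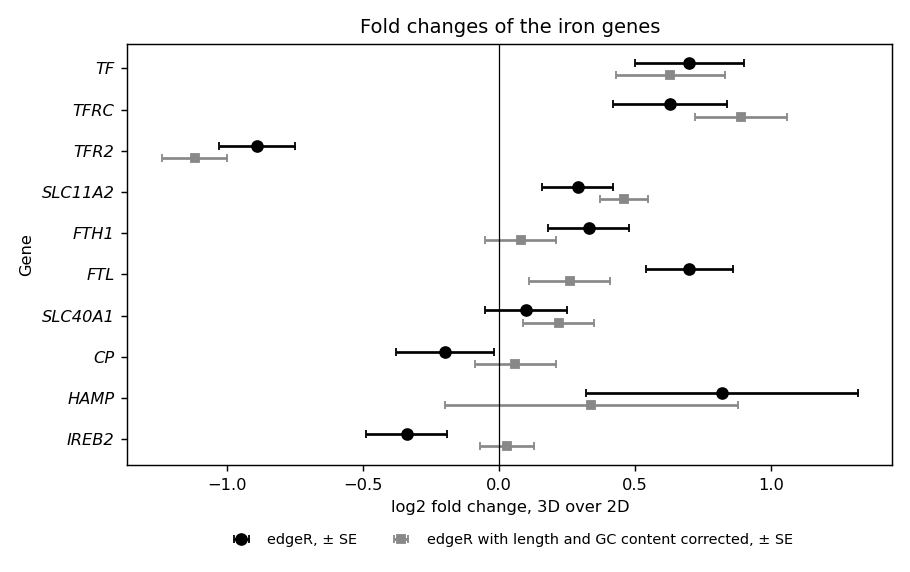
Log2 fold change, 3D over 2D, of each iron gene by edgeR without and with transcript length and GC content corrected; bars are ± SE of the fitted value from 3 libraries per group. TF, TFRC and TFR2 keep their side, FTL moves from 0.70 to 0.26, and CP and IREB2 cross to small positive values of 0.06 and 0.03.

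SLC40A1 (chromosome 2, 189560579 to 189583759), the exporter ferroportin, was at 26.2, 33.2 and 29.7 CPM in 2D and at 30.5, 37.2 and 27.7 CPM in 3D. These values overlapped, and the log2 fold change was 0.10 with a 95% interval of −0.23 to 0.43 (edgeR adjusted p = 0.64). CP (chromosome 3, 149162410 to 149222056), the plasma ferroxidase, was at 250.2, 222 and 254 CPM in 2D and at 146, 253 and 234 CPM in 3D. Only 3D replicate 1 lay below the plate range, and the gene was not called with it (log2 −0.20, SE 0.18, edgeR adjusted p = 0.428) or without it (adjusted p = 0.98). HPS3, on the opposite strand across the CP locus, had 10.1% to 18.6% of the CP count and a log2 fold change of 0.03.

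HAMP (chromosome 19, 35280716 to 35285144), which encodes hepcidin, was low, at 115, 97 and 185 counts in the 2D libraries and 59, 394 and 136 counts in the 3D libraries. As levels these were 7.20, 5.88 and 10.3 CPM in 2D and 5.85, 25.5 and 9.56 CPM in 3D. One bioreactor library was high and the others lay within or next to the plate range. The gene was not called (log2 0.82, SE 0.50, 95% interval −0.33 to 1.98, edgeR adjusted p = 0.236), and without 3D replicate 2 its log2 fold change was −0.01.

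IREB2 (chromosome 15, 78437431 to 78501457), the iron regulatory protein that is degraded when iron is plentiful, was at 122, 114 and 121 CPM in 2D and at 84.9, 117 and 80.6 CPM in 3D. A single bioreactor library reached the plate range, and IREB2 was not called (log2 −0.34, SE 0.15, edgeR adjusted p = 0.087). Without that library, 3D replicate 2, it was called lower (log2 −0.53, adjusted p = 0.00683). Correcting for length and GC content left a log2 fold change of 0.03. Its partner ACO1, which becomes an RNA-binding protein when it lacks its iron-sulfur cluster, rose from 32.2 ± 3.00 to 45.9 ± 5.43 CPM (SD, n = 3; log2 0.51, SE 0.14, edgeR adjusted p = 0.0134). The ACO1 call was lost without 2D replicate 1 or 2D replicate 2 (edgeR adjusted p = 0.0741 and 0.0645). FBXL5, which targets IREB2 for degradation, averaged 24.2 ± 2.07 CPM on plates and 23.0 ± 0.636 CPM in the bioreactor (edgeR adjusted p = 0.698).

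TFRC transcription is known to be driven by hypoxia-inducible factors as well. A short window of its RefSeq promoter (GRCh38.p14) is therefore shown, in which the capitals mark ACGTG, a form of the hypoxia response core. Of the 10 genes, 7 had an entry in the promoter table, and the 250 bases before the start were searched on both strands for ACGTG and for GCGTG, another form of the core. FTH1, TFR2 and CP had no entry and were not searched. The 7 genes had 12 promoter windows between them, while the shares over all promoters given here are per window. FTL held ACGTG too, 11 bases before its start, and GCGTG was found in FTL, SLC11A2 and IREB2. The antioxidant response core, TGACNNNGC, was searched for as well and had no match in these 7 genes, beside 10.9% of all promoter windows. The RefSeq start of TFRC lies inside the gene as bounded in the count table, so the window shown is upstream of the RefSeq start but within the counted gene.
TFRC, chr3:196082162-196082190, minus strand, 100 to 72 bases before the RefSeq start: cctcgcgagcgtACGTGcctcaggaagtg
Such letters are common, and 18.5% of 35116 promoter windows held ACGTG and 32.2% GCGTG. CA9, which is induced by low oxygen, stood at 2.63, 1.33 and 3.11 CPM in the 2D libraries and 23.2, 29.4 and 11.3 CPM in the 3D libraries. It was called higher (log2 3.17, edgeR adjusted p = 0.000549), with length and GC content corrected too (log2 2.81, adjusted p = 0.00303). VEGFA, another target of hypoxia-inducible factors, averaged 335 ± 16.1 CPM on plates and 264 ± 68.2 CPM in the bioreactor (SD, n = 3; log2 −0.34, edgeR adjusted p = 0.14), and was called lower once length and GC content were corrected (log2 −0.68, adjusted p = 0.0217) or without 3D replicate 2 (log2 −0.54, adjusted p = 0.0273). What low oxygen contributed to TFRC was not tested.

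Hepcidin transcription is known to be driven by BMP signals through SMAD proteins. Among 16 tested genes that control hepcidin through BMP and SMAD, 4 rose and 4 fell, and the median log2 fold change was 0.01. The shares over all tested genes were 19.0% higher and 17.6% lower. Once length and GC content were corrected 5 of the 16 rose and 1 fell: BMPR2 was called higher, and ACVR2A, SMAD4 and SMAD5 were not called. Without 2D replicate 1 or 2D replicate 3, 2 fell. TMPRSS6, the liver protease that lowers hepcidin by cleaving hemojuvelin, was at 1.69, 2.12 and 2.61 CPM on plates and at 14.3, 12.9 and 10.3 CPM in the bioreactor. The groups lay far apart, with a 5.79-fold rise (log2 2.53, SE 0.23, edgeR adjusted p = 4.95e-05). SMAD6 and SMAD7, inhibitory SMADs that BMP signals induce, rose from 9.24 ± 1.51 to 22.6 ± 4.01 CPM (2.44-fold) and from 18.1 ± 5.37 to 36.5 ± 8.57 CPM (2.02-fold). ID1, another BMP target, averaged 256 ± 79.3 CPM on plates and 268 ± 39.0 CPM in the bioreactor (edgeR adjusted p = 0.825). FURIN, a protease that cuts the hepcidin precursor, rose 2.09-fold.

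NEO1, a partner of hemojuvelin, fell from 60.3 ± 2.71 to 37.8 ± 3.82 CPM (SD, n = 3; log2 −0.68). ACVR2A, a type II receptor, had a log2 fold change of −0.73 and SMAD4, the common SMAD, one of −0.46. The ACVR2A and SMAD4 calls were lost with length and GC content corrected (log2 −0.38 and −0.05), and SMAD4 also without 2D replicate 1 or 2D replicate 3. HFE, mutated in hereditary haemochromatosis, averaged 4.34 ± 0.357 CPM on plates and 5.04 ± 0.985 CPM in the bioreactor (edgeR adjusted p = 0.523). BMP6, the iron-responsive ligand, reached no more than 12 counts per library and was not tested.

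**Figure D3:**
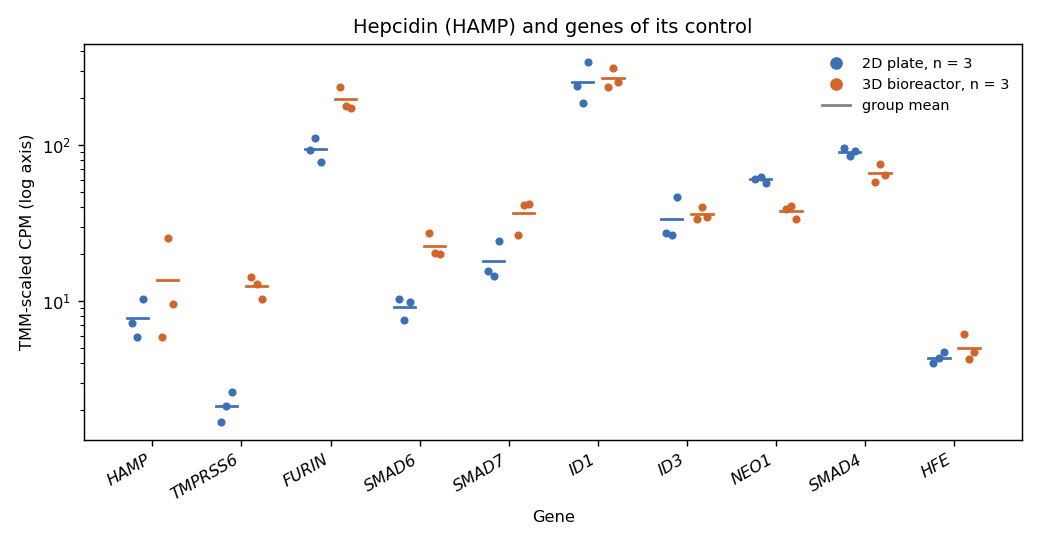
HAMP and genes of its control in each library, as TMM-scaled CPM on a log axis; dots are libraries, lines group means, 3 libraries per culture form. TMPRSS6, FURIN, SMAD6 and SMAD7 are higher in every 3D library than in any 2D library, NEO1 and SMAD4 lower, and HAMP, ID1, ID3 and HFE overlap.

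Of 21 tested genes of other uptake routes and of iron handling in the cell, 2 rose and 6 fell, and the median log2 fold change was −0.02. In either direction 38.1% of this list was called, close to the 36.6% of all tested genes (19.0% higher and 17.6% lower). Without 2D replicate 1 the counts were 0 and 3, without 2D replicate 2 none rose, and without 2D replicate 3 or 3D replicate 2 just 1 rose. Once length and GC content were corrected 1 rose and 7 fell. STEAP2, an iron reductase, fell from 38.5 ± 6.53 to 11.1 ± 3.27 CPM (SD, n = 3; log2 −1.79, SE 0.21, edgeR adjusted p = 0.000188). STEAP3, the reductase of the transferrin cycle in red cell precursors, averaged 51.0 ± 8.22 CPM on plates and 62.1 ± 8.88 CPM in the bioreactor (edgeR adjusted p = 0.168). NCOA4, the receptor that delivers ferritin to the lysosome for iron release, fell from 511 ± 28.8 to 346 ± 39.5 CPM (log2 −0.56, SE 0.13). SLC39A14, an importer of iron not bound to transferrin that was chosen after its values were seen, fell from 1081 ± 66.3 to 704 ± 127 CPM (log2 −0.62).

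LRP1, the receptor of haem bound to hemopexin, fell from 483 ± 37.7 to 309 ± 85.6 CPM, a call lost without 2D replicate 1 (edgeR adjusted p = 0.0731). LCN2, which binds bacterial iron carriers, was near the detection limit, at 31, 18 and 27 counts in 2D and 5, 0 and 5 counts in 3D, and its call too was lost without 2D replicate 1 (edgeR adjusted p = 0.0522). SLC22A17, a receptor for LCN2, had a log2 fold change of 1.14 at a mean of 1.71 CPM in 3D. It lost its call with the length and GC correction, with DESeq2 and without any of 5 libraries (all but 3D replicate 3).

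Of 18 tested haem genes 7 rose and 1 fell, with their median log2 fold change at 0.22. Over all tested genes 19.0% rose and 17.6% fell. Once length and GC content were corrected 5 of the 18 rose and 2 fell. Without 2D replicate 1 or 2D replicate 2, 5 rose, and without 3D replicate 3, 2 fell. HMOX1, which frees iron from haem, was at 28.3, 23.2 and 29.9 CPM in 2D and 72.4, 81.8 and 69.3 CPM in 3D, the largest rise on this list (log2 1.46). BLVRB, a biliverdin reductase, rose from 7.96 ± 0.773 to 15.6 ± 2.47 CPM (SD, n = 3), and ALAS1, the first enzyme of haem synthesis in liver, from 22.6 ± 2.29 to 39.9 ± 2.60 CPM. SLC25A37, the mitochondrial iron importer mitoferrin 1, fell from 42.6 ± 3.80 to 28.4 ± 3.48 CPM. BLVRB was not called with length and GC content corrected (log2 0.45, adjusted p = 0.086).

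Of 25 genes of iron-sulfur cluster assembly 9 rose and 1 fell, with their median log2 fold change at 0.30. Among all tested genes 19.0% rose and 17.6% fell. Once length and GC content were corrected 6 of the 25 rose and 2 fell. Without 2D replicate 1 or 3D replicate 3, 6 rose as well. NFS1, the desulfurase that supplies sulfur, rose from 20.5 ± 2.35 to 40.9 ± 5.28 CPM (SD, n = 3; log2 0.99, SE 0.15), and FDXR, which passes electrons to ferredoxin, from 39.2 ± 4.56 to 81.0 ± 24.6 CPM. BOLA3, a late assembly factor, rose 1.92-fold, a call lost with length and GC content corrected (log2 0.55, adjusted p = 0.0744). HSPA9, the mitochondrial chaperone, fell from 655 ± 55.4 to 404 ± 48.6 CPM.

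Of 4 other transcripts known to carry an iron responsive element, 0 rose and 2 fell. CDC14A, a phosphatase, fell from 9.13 ± 0.560 to 5.36 ± 0.572 CPM (SD, n = 3) and CDC42BPA, a kinase, from 56.0 ± 1.08 to 38.0 ± 3.49 CPM. With length and GC content corrected CDC42BPA was not called (log2 −0.15). In all, 36.6% of tested genes were called in either direction, beside 42.9% of the 84 tested genes of these 5 lists (22 rose and 14 fell).

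**Figure D4:**
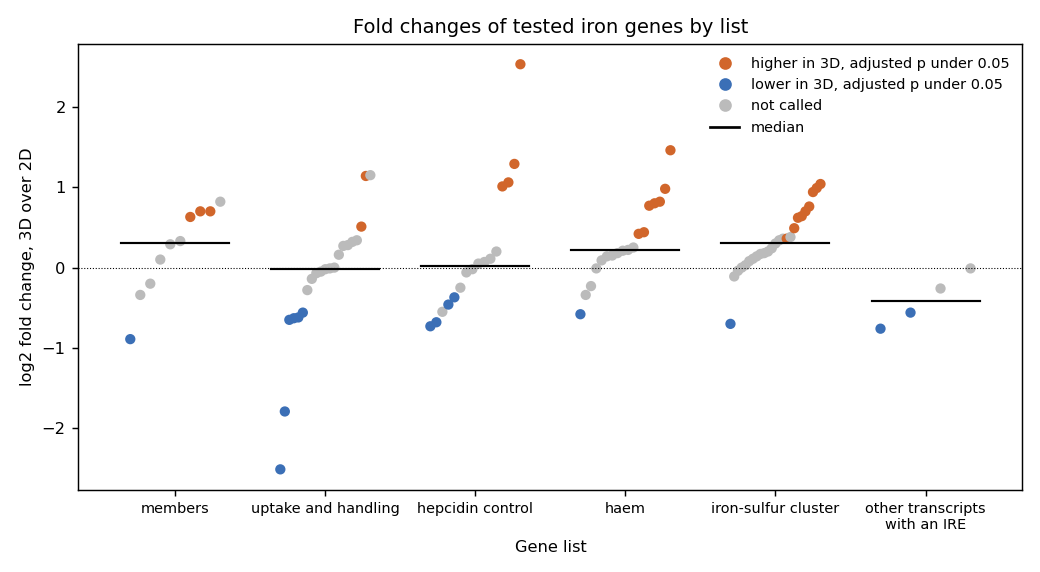
Log2 fold change, 3D over 2D, of the members and of the tested genes of 5 other iron gene lists; each dot is a gene, coloured by its edgeR call, and lines are medians. TMPRSS6 at 2.53 and LCN2 at −2.51 are the highest and lowest dots, and the medians lie between −0.41 and 0.31.

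Markers of other cells that handle iron were examined alongside. Of 8 red cell precursor genes 2 were in the table, with a summed level of 5.83 to 6.73 CPM in 2D and 5.27 to 6.01 CPM in 3D, and the others were not analysed here. Most of that sum was EPOR, at means of 5.79 CPM in 2D and 4.74 CPM in 3D. Of 8 macrophage and blood genes 3 were in the table, with a summed level of 979.6 to 1476 CPM in 2D and 436 to 1015 CPM in 3D. Nearly all of that sum was LYZ, while CD68 rose 4.21-fold and PTPRC was not analysed here. Endothelial genes (3 of 6 in the table) summed to 2.00 to 4.79 CPM on plates and 2.46 to 5.49 CPM in the bioreactor. Fibroblast genes (3 of 7) summed to 35.5 to 44.8 and 25.5 to 42.8 CPM, with COL1A1 higher and PDGFRB and ACTA2 lower. All samples were labelled as the HepG2 line, so these sums are levels in that line and give no count of other cells.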

How the data were processed

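Total RNA of 6 samples was sequenced. The tools were STAR 2.4.1d and Partek with build hg38, per the submitters' processing notes. Annotation release, counting settings and use of strand: not given in the sources used here, so genes overlapping on opposite strands and near-identical copies are uncertain. The authors deposited estimated counts (expected counts) per gene, not scaled, of which 61.7% were whole numbers. They were rounded, which moved no library total by more than 25 counts. The lowest gene total in the table was 10.

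Groups and replicate numbers came from sample titles. edgeR 4.0.16 (R 4.3.3) was run with filterByExpr, TMM scaling and a robust quasi-likelihood fit with culture as its term, adjusted over 15314 genes. SEs were derived from the F statistic. A floor of 3 counts equals 0.167 to 0.298 CPM, for counting error only. No replicate pair agreed within sampling noise (chi-square per degree of freedom 11.2 to 29.5). The script was tested on simulated data.

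Alternatives were DESeq2 1.42.0, limma-voom (limma 3.58.1), RLE, upper-quartile and trimmed scaling, other filters on low counts (none, or 1 CPM in 3 samples), a block for the replicate number, a loess correction (span 0.5) for length and GC content, both together, and leaving out libraries. GENCODE 29 gave lengths for 89.7% of tested genes. Named were the members, a fixed set of control and context genes, and up to 3 called genes per direction and list with at least 1 CPM. Members, lists and the doubted libraries were chosen with earlier results of these data known. HJV, ATOH8 and CRP were not analysed here. SLC7A11, NQO1, ALB, HNF4A, SOCS3 and FGG were context genes of the rule.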

Additional observations from a re-analysis of the deposited data

How the results depend on the processing

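Under 11 settings other than leaving out 1 library, the counts over all genes, members and other iron genes together kept within 1.5 times: 2 or 3 members rose and 1 fell. Counts of single lists moved further: with length and GC content corrected, with or without the block, hepcidin control genes lower went from 4 to 1, uptake genes higher from 2 to 1, and haem and iron-sulfur genes lower each from 1 to 2. Uptake genes higher were also 1 with the block and with DESeq2. Leaving out 1 library at a time gave 1 to 3 members higher and 1 to 2 lower, 15 to 23 other iron genes higher and 9 to 15 lower, and 1938 to 2817 genes higher and 1828 to 2792 lower over the whole table. The lowest counts came without 2D replicate 1 for all genes higher (1938) and other iron genes lower (9). Just 1 member was higher without 2D replicate 1, 2D replicate 2 or 3D replicate 2. TFRC to TFR2 log2 ratio differences ran from 1.22 to 1.79, and FTL to FTH1 from 0.30 to 0.45. Of 170 alternative values for the members, 148 kept direction and side of the threshold, 12 lost the call, 4 gained it and 6 changed sign.

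Sign changes were all of uncalled genes, and to small values apart from ID1 with length and GC content corrected. Without 3D replicate 2, SLC40A1 was at −0.03, HAMP at −0.01 and ID1 at −0.06. Leaving out 1 library at a time, SLC40A1 ran from −0.03 to 0.19, HAMP from −0.01 to 1.16 and ID1 from −0.13 to 0.33. With length and GC content corrected, CP was at 0.06, IREB2 at 0.03, ID1 at −0.37, FBXL5 at 0.08 and HNF4A at 0.02. With the replicate block as well, these were 0.04, 0.02, −0.34, 0.08 and 0.01. ID1 was at −0.13 without 2D replicate 2 and at −0.05 without both doubted libraries (2D replicate 2 and 3D replicate 1). The cause was not tested.

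The labels do not say whether same-numbered samples were paired. Deviations of same-numbered samples correlated at 0.053, −0.00924 and −0.0783, and those of other pairs at −0.0812 to 0.103. With so few libraries these values cannot settle it. With the replicate block 3 members rose and 1 fell, 19 other iron genes rose and 13 fell, and 2747 genes rose and 2611 fell. With the block and the length and GC correction together TF was not called (log2 0.60, edgeR adjusted p = 0.0567). Block differences of the log2 ratios were 1.51 (TFRC to TFR2) and 0.36 (FTL to FTH1). With equal numbers of samples they had to equal the differences without the block, so they say nothing about pairing. An exact test that flips the sign of each paired difference gave p = 0.25 for both ratios, the smallest that 3 pairs allow. HAMP, BMP6 and LCN2 are limited by their low counts.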

Other observations

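A copy of the light ferritin gene was among the rows that rose. FTLP3 (chromosome 20), a processed FTL pseudogene, was at 102, 94.4 and 104 CPM on plates and at 203, 188 and 217 CPM in the bioreactor (log2 1.02, SE 0.12, edgeR adjusted p = 0.000133), and it was called with length and GC content corrected too (log2 0.49, adjusted p = 0.00239). Of 9 tested FTH1 pseudogene rows 3 rose and 0 fell, and of 2 tested FTL pseudogene rows 2 rose. The share of all tested genes that rose was 19.0%. These rows have lengths within the shortest group of coding genes, in which 505 of 1229 rose and 44 fell. With length and GC content corrected the 4 calls other than FTLP3 were lost: FTH1P16, FTH1P3, FTH1P7 and FTLP2 (edgeR adjusted p = 0.115, 0.0605, 0.306 and 0.0829). How reads shared with the parent genes were divided is not given, so these rows are uncertain.

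Of 5 context genes, SLC7A11 and NQO1 were called and SOCS3, FGG and HNF4A were not. SLC7A11, the cystine transporter, and NQO1, a quinone reductase, are both known NRF2 targets, as are the ferritin genes. SLC7A11 fell from 386 ± 43.2 to 66.9 ± 19.9 CPM, and NQO1 rose from 288 ± 29.6 to 560.4 ± 109 CPM (SD, n = 3). SOCS3, a STAT3 target, averaged 8.50 ± 0.867 CPM on plates and 5.87 ± 0.786 CPM in the bioreactor (edgeR adjusted p = 0.0518), and it was called lower with RLE scaling, with length and GC content corrected and without 3D replicate 1. FGG, an acute phase gene of fibrinogen, averaged 1544 ± 105 CPM on plates and 1365 ± 141 CPM in the bioreactor (edgeR adjusted p = 0.342). HNF4A, the liver regulator, was at 354 ± 20.2 and 325 ± 23.8 CPM (edgeR adjusted p = 0.453).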
